A study of Homo sapiens with 12 samples.

Results

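The 8 genes described here encode matrix-binding integrins: the alpha subunits ITGA2, ITGA3, ITGA5 and ITGAV and the beta subunits ITGB1, ITGB5, ITGB6 and ITGB8. They were taken by name from the 61533 gene entries of each library, and all 8 were among the 15616 genes that passed the filter on low counts. Messenger RNA was sequenced from 4 lines derived from HMLE, a human mammary epithelial line immortalised with telomerase and SV40 large T antigen. The control line carried a control construct, the CT83 line overexpressed CT83, the HORMAD1 line overexpressed HORMAD1, and the double line overexpressed both. All 4 lines, the control included, had been selected with puromycin, and none had received another treatment. HORMAD1 is a meiotic gene whose product acts on chromosome axes, and CT83 is a cancer/testis gene. The series was made to ask what the transgenes do in HMLE cells and whether they cooperate. Each line had 3 libraries. Each construct is represented by 1 line, so the effect of a transgene and other differences between derived lines cannot be told apart, and the labels do not say whether the 3 libraries came from separate cultures. The p-values therefore rest on the spread among these libraries alone, and it may be technical.

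Integrins are receptors made of 1 alpha and 1 beta subunit that span the cell membrane, bind the extracellular matrix outside and link to the actin cytoskeleton through talin and kindlin inside. The ITGB1 product pairs with many alpha subunits, among them those of ITGA2 (a collagen receptor), ITGA3 (a laminin receptor) and ITGA5 (the classical fibronectin receptor). The ITGAV product pairs with the products of ITGB1, ITGB5, ITGB6 and ITGB8. The pairs with ITGB6 and ITGB8 are known for activating latent TGF-beta, and ITGB6 is an epithelial gene. In mammary epithelium, integrins hold basal cells on the basement membrane.

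Library totals ran from 9898845 to 14159740 counts. HORMAD1 and CT83 had 0 counts in all 6 libraries of the lines without the respective transgene. In the 6 libraries with it, HORMAD1 had 202.8 to 346.5 normalised CPM (counts scaled to library size) and CT83 had 86.7 to 723.7 CPM. All 7 markers of basal mammary epithelium passed the filter, with KRT5 at 2411 to 3130 CPM and TP63 at 131 to 158 CPM, and their sum was 6412 to 9041 CPM. Of 7 luminal markers 5 passed; KRT8 had 1766 to 2659 CPM, while KRT19 stayed at or below 1.49 CPM and ELF5 at or below 0.176 CPM. The summed CPM of the markers was 19.5 to 31.0 for fibroblasts (7 genes), 0.191 to 1.55 for endothelium (4 genes) and 4.93 to 8.47 for leukocytes (5 genes). These are bulk libraries, so fewer cells with an RNA and less of it per cell cannot be told apart.

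In the fit of 12 libraries the mRNA levels of the 8 integrins were not shown to differ between the 4 lines, nor shown to be equal. At an adjusted p under 0.05 (edgeR's quasi-likelihood test on all 12 libraries, Benjamini-Hochberg adjustment over 15616 genes), 0 of 8 were called in each comparison. The share of all genes called was 0.0064% for the CT83 line against control, 0.0064% for the HORMAD1 line against control and 0.0256% for the double line against control. It was 0.0064% for the double line against the CT83 line, 0.0448% for the double line against the HORMAD1 line and 0.0128% for the HORMAD1 line against the CT83 line. For the interaction, the log2 difference between the double and CT83 lines minus that between the HORMAD1 and control lines, it was 0%. Between each line with 1 transgene and control, the only gene called was that transgene. Between the double and CT83 lines and between the HORMAD1 and CT83 lines, only transgenes were called as well. A single test per gene for any difference among the 4 lines called 0 of 8 integrins and 0.0448% of all genes, and the integrins' adjusted p in it lay between 0.914 and 0.973. DESeq2 and limma-voom also called 0 of 8 in each of these tests.

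The lowest adjusted p among the 8 integrins was 0.458 over all comparisons and 0.907 over those with control. Against control, the unadjusted 95% intervals of the log2 fold changes reached from -0.35 to 0.49, the latter a 1.41-fold difference. Both bounds belong to ITGA3, and the width differed by gene. For ITGB1 in the double line against control the interval was -0.23 to 0.10. Each interval against control included 0, so differences within it were not resolved from the spread between libraries. The standard errors between lines were 0.076 to 0.14, against a median of 0.15 over all genes tested. In the 7 comparisons the median log2 fold change of the 8 integrins ranged from -0.06 (CT83 line against control, 3 above and 5 below 0) to 0.03 (HORMAD1 line against CT83 line, 4 above and 4 below 0). The medians over all genes tested ranged from -0.01 to 0.01.

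At an unadjusted p under 0.05, 6 of the 56 differences (8 genes, 7 comparisons) stood out. There were 0 of 8 against control in the CT83, HORMAD1 and double lines, where 2.74%, 1.82% and 5.56% of all genes passed that threshold. The double line against the CT83 line gave 1 of 8 (ITGB6; 8.05% of all genes) and the double line against the HORMAD1 line 1 of 8 (ITGB6; 7.59%). The HORMAD1 line against the CT83 line gave 3 of 8 (ITGA3, ITGAV and ITGB8; 4.64%), and the interaction 1 of 8 (ITGB6; 4.5%). The comparisons share libraries, so these counts are not independent of each other.

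**Figure D1:**
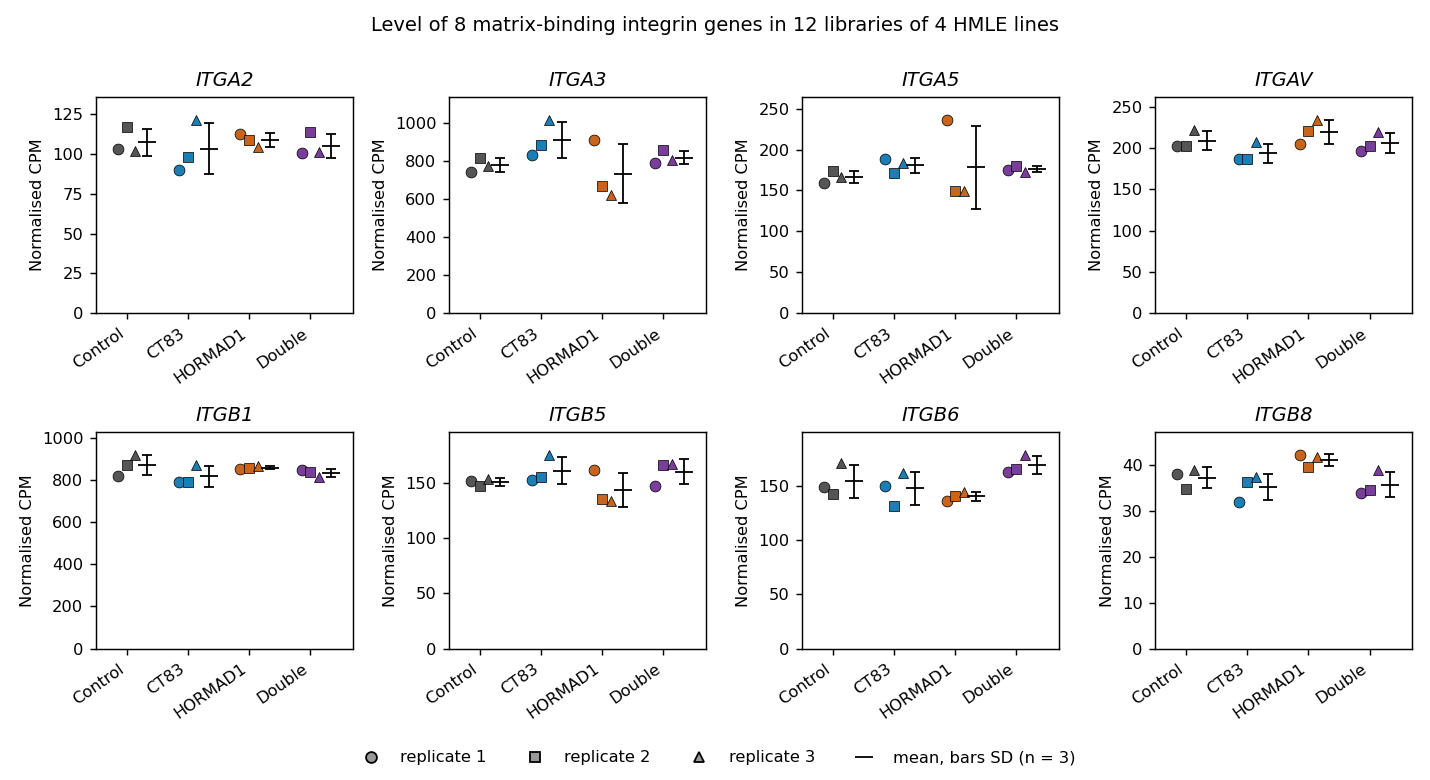
Normalised CPM (y axis, from 0) of the 8 integrin genes in each library of the 4 lines (x axis); circles, squares and triangles are replicates 1, 2 and 3, and bars give the mean and SD of 3 libraries. The largest difference between 2 lines is that of ITGA3, -0.31 on the log2 scale in the HORMAD1 line against the CT83 line. HORMAD1 replicate 1 stands above the other HORMAD1 libraries for ITGA3 (907 CPM) and ITGA5 (236 CPM).

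Per kb of the longest annotated transcript, which makes levels comparable between genes, ITGB1 was the most abundant at a mean of 223 CPM per kb over the 12 libraries, followed by ITGA3 at 165. ITGA5 (39.5), ITGB5 (35.2), ITGB6 (32.7) and ITGAV (29.5 CPM per kb) formed a middle group. ITGA2 had 13.5 and ITGB8 4.26 CPM per kb. Each gene exceeded the next in this order in 12 of 12 libraries, except that ITGB5 exceeded ITGB6 in 9 of 12 and ITGB6 exceeded ITGAV in 10 of 12; the order of these 3 was not fixed. The place of ITGAV is also uncertain for another reason. An antisense gene held 84.4% to 92.0% as many counts, and its reads cannot be told apart from those of ITGAV. Ranked by mean CPM among the genes tested, ITGB1 and ITGA3 both lay at the 99.2nd percentile and ITGB8 at the 64.3rd.

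ITGB1 (ENSG00000150093.20; GRCh38 chr10:32900319-33005792, minus strand, coordinates of all genes from GENCODE 29) encodes the common beta subunit. Its levels were 819.3, 872.3 and 916.5 CPM in the control libraries, 788.3, 788.7 and 871.2 in the CT83 libraries, 852.0, 854.5 and 865.3 in the HORMAD1 libraries, and 848.1, 835.6 and 812.2 CPM in the double libraries (replicates 1 to 3). It was the steadiest of the 8, with a highest level 1.16 times the lowest. The double libraries all lay below the HORMAD1 libraries, but by a log2 fold change of -0.04 (SE 0.076, adjusted p 0.897, edgeR). The means of the lines ran from 869.4 ± 48.7 CPM (SD, n = 3) in control to 816.1 ± 47.8 CPM in the CT83 line, and the control, CT83 and double libraries overlapped. The processed pseudogene ITGB1P1 had 0 counts in each library.

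Among its alpha partners, ITGA2 (ENSG00000164171.11; chr5:52989326-53094779, plus strand) encodes the collagen-binding subunit. It had 103.0, 117.2 and 101.8 CPM in control, 90.2, 98.4 and 121.5 in the CT83 line, 112.8, 109.1 and 104.3 in the HORMAD1 line, and 100.4, 113.6 and 101.3 CPM in the double line. Every line overlapped every other. The log2 fold changes between lines lay between -0.05 and 0.07, and the unadjusted 95% interval of the CT83 line against control was -0.28 to 0.17.

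ITGA3 (ENSG00000005884.18; chr17:50055968-50090481, plus strand) encodes the laminin-binding subunit. Control libraries had 741.7, 814.1 and 769.6 CPM and CT83 libraries 830.0, 883.2 and 1014.2 CPM, so that all 3 CT83 libraries lay above control. This was the only one of the 8 genes without overlap in that comparison, in which 10.5% of all genes did not overlap, and the log2 fold change was 0.23 (SE 0.12, adjusted p 0.984, edgeR). HORMAD1 libraries had 907.1, 664.7 and 620.2 CPM, and double libraries 789.2, 856.1 and 801.7 CPM. Replicate 1 of the HORMAD1 line lay above all 3 control libraries, and replicates 2 and 3 lay below them. The HORMAD1 line stood at -0.31 on the log2 scale against the CT83 line (SE 0.12, unadjusted p 0.0212, adjusted p 0.978, edgeR). It was the largest difference in size between 2 lines among the 8 genes.

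That value was smaller in size with HORMAD1 replicate 1 than without it. Without HORMAD1 replicate 1, ITGA3 was lower in the HORMAD1 line than in the CT83 line by edgeR's test, at a log2 fold change of -0.50 (SE 0.086, adjusted p 0.0276); it was the only integrin called, beside 0.726% of all genes. Against control the same fit gave -0.27 (SE 0.086, adjusted p 0.844).

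ITGA5 (ENSG00000161638.11; chr12:54395261-54419460, minus strand) encodes the fibronectin-binding partner of the ITGB1 product. Its levels were 159.4, 173.3 and 166.2 CPM in control, 188.1, 170.8 and 183.4 in the CT83 line, and 175.6, 179.9 and 172.9 CPM in the double line. In the HORMAD1 line they were 236.3, 149.0 and 149.1 CPM. Replicate 1 was thus the highest of all 12 libraries, 1.59 times the mean of replicates 2 and 3, which were the lowest of all 12. The line means nearly coincided (178.1 ± 50.4 CPM in the HORMAD1 line against 166.3 ± 6.9 CPM in control, SD, n = 3), at a log2 fold change of 0.10 (SE 0.14, adjusted p 1, edgeR); without that replicate it was -0.15 (SE 0.069, adjusted p 0.844).

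The promoter window of ITGA5 is shown because this gene had the widest gap between libraries of 1 line; it is RefSeq sequence of GRCh38.p14, chr12:54419217-54419516, minus strand, 300 bases with the start site 50 bases before the 3′ end. Windows were matched by symbol for 7 of the 8 genes, with none for ITGA3. Capitals mark matches on either strand to 5 motifs: the AP-1 letters TGANTCA, the letters GGGCGG known for SP1, the letters CATTCC known for TEAD factors, the E-box CAGGTG, and the core promoter letters TATAAA.
ITGA5: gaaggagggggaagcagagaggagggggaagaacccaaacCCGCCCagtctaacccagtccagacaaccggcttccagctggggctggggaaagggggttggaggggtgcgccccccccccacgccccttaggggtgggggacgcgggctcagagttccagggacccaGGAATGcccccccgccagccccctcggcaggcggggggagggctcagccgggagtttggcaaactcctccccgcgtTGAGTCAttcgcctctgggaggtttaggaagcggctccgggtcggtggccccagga
Counting the start site as 0, TGANTCA was matched from base -6, CATTCC on the opposite strand from -82 and GGGCGG on the opposite strand from -210. These motifs occur in 7.71%, 14.0% and 45.0% of 35116 promoter windows of the same length. ITGA5 was the only one of the 7 integrins with a window in which TGANTCA was matched, and ITGA3 was not looked at. The 3 matches do not overlap each other. A match is a description of the letters and not of binding.

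ITGAV (ENSG00000138448.12; chr2:186590065-186680901, plus strand) encodes the alpha subunit shared by ITGB5, ITGB6 and ITGB8. Control had 202.5, 202.5 and 222.2 CPM, the CT83 line 186.4, 187.3 and 207.4, the HORMAD1 line 204.6, 220.6 and 234.3, and the double line 196.1, 202.2 and 219.2 CPM. The CT83 line had the lowest mean (193.7 ± 11.9 CPM) and the HORMAD1 line the highest (219.9 ± 14.9 CPM, SD, n = 3), and their libraries overlapped. The log2 fold change of the HORMAD1 line against the CT83 line was 0.18 (SE 0.081, unadjusted p 0.0401, adjusted p 0.978, edgeR). An antisense gene, AC017101.1, shares 203 exon bases with ITGAV and held 84.4% to 92.0% as many counts in each library. Whether counting used strand is not given in the sources used here, so reads of the 2 genes cannot be told apart, and the level of ITGAV is uncertain. With the counts of both added, the same difference was 0.18 (SE 0.083, adjusted p 0.978, edgeR).

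ITGB5 (ENSG00000082781.12; chr3:124761948-124901418, minus strand) encodes a vitronectin-binding partner of the ITGAV product. Levels were 152.0, 146.9 and 153.8 CPM in control, 152.7, 154.9 and 175.0 in the CT83 line, 161.2, 135.0 and 133.7 in the HORMAD1 line, and 146.9, 166.0 and 167.0 CPM in the double line. Replicate 1 of the HORMAD1 line was again apart from replicates 2 and 3, by 1.20 times. All lines overlapped; the HORMAD1 line stood at -0.17 (SE 0.09, adjusted p 0.978) on the log2 scale against the CT83 line and the double line at 0.16 (SE 0.09, adjusted p 0.719) against the HORMAD1 line, both by edgeR.

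ITGB6 (ENSG00000115221.12; chr2:160099666-160200313, minus strand) encodes the epithelial partner of the ITGAV product that activates latent TGF-beta. The double line had the highest mean, with 162.7, 165.8 and 178.3 CPM, and the HORMAD1 line the lowest, with 136.5, 140.3 and 144.6 CPM. Control libraries had 149.4, 142.3 and 171.2 CPM, and CT83 libraries 150.2, 131.4 and 161.6 CPM. The double libraries all lay above those of both single lines and overlapped with control.

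Against the HORMAD1 line, the log2 fold change of ITGB6 in the double line was 0.27 (SE 0.09, 95% interval 0.07 to 0.46, unadjusted p 0.00998), the lowest adjusted p of the 8 genes at 0.458 (edgeR). Against the CT83 line it was 0.19 (SE 0.09, adjusted p 0.585), and against control 0.13 (SE 0.09, adjusted p 0.907). HORMAD1 alone stood at -0.14 and CT83 alone at -0.06 against control, which gives an interaction of 0.33 (SE 0.13, unadjusted p 0.0209, adjusted p 0.841, edgeR). AC092153.1, on the same strand, shares 966 exon bases with ITGB6 and held 2 to 10 counts per library.

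ITGB8 (ENSG00000105855.10; chr7:20330702-20415754, plus strand) encodes the other partner that activates latent TGF-beta. It had the lowest levels: 38.0, 34.7 and 39.0 CPM in control, 32.1, 36.2 and 37.3 in the CT83 line, and 33.8, 34.5 and 38.9 CPM in the double line. The HORMAD1 libraries, at 42.1, 39.6 and 41.7 CPM, were the 3 highest of the 12. The HORMAD1 line thus did not overlap with control (1 of 8 integrins in that comparison; 7.56% of all genes) or with the CT83 line (1 of 8; 7.48%).

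The log2 fold change of ITGB8 in the HORMAD1 line was 0.14 against control (SE 0.096, adjusted p 1) and 0.23 against the CT83 line (SE 0.097, unadjusted p 0.033, adjusted p 0.978, edgeR). For the double line against the HORMAD1 line it was -0.21 (SE 0.097, adjusted p 0.658). In that comparison 3 of 8 integrins did not overlap, ITGB6 higher and ITGB1 and ITGB8 lower in the double line, beside 12.2% of all genes. The double line against the CT83 line gave 1 of 8 (ITGB6; 17.9% of all genes), and the double line against control 0 of 8 (15.4%). The gene had 374 to 625 counts per library, and its antisense neighbour AC004130.1, with 98 shared exon bases, had 40 to 82.

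The promoter windows of ITGB6 and ITGB8 are shown side by side because these partners of ITGAV lay at opposite ends in the HORMAD1 line; they are RefSeq sequences of GRCh38.p14, with capitals as above. That of ITGB6 is chr2:160200223-160200522, minus strand, and that of ITGB8 is chr7:20330650-20330949, plus strand.
ITGB6: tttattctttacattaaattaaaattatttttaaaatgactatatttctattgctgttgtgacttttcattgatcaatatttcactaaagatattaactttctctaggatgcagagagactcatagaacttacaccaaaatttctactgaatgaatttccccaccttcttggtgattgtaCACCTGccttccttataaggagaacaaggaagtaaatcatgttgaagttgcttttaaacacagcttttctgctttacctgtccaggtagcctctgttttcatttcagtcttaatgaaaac
ITGB8: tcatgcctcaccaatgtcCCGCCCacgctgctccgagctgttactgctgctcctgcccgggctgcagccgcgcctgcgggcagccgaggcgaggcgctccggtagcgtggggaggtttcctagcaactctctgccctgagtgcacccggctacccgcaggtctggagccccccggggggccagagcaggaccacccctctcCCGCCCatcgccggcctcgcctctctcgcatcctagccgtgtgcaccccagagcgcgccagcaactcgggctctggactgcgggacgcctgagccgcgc
The ITGB6 window is 31.7% G and C, against 71.7% for ITGB8 and a median of 58.7% over all windows. It holds 1 match of CAGGTG, on the opposite strand from -70, a motif found in 20.6% of windows, and no GGGCGG. The ITGB8 window holds 2 matches of GGGCGG, both on the opposite strand, from -232 and -49, and none of the other 4 motifs. TATAAA, found in 11.5% of windows, was in neither.

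**Figure D2:**
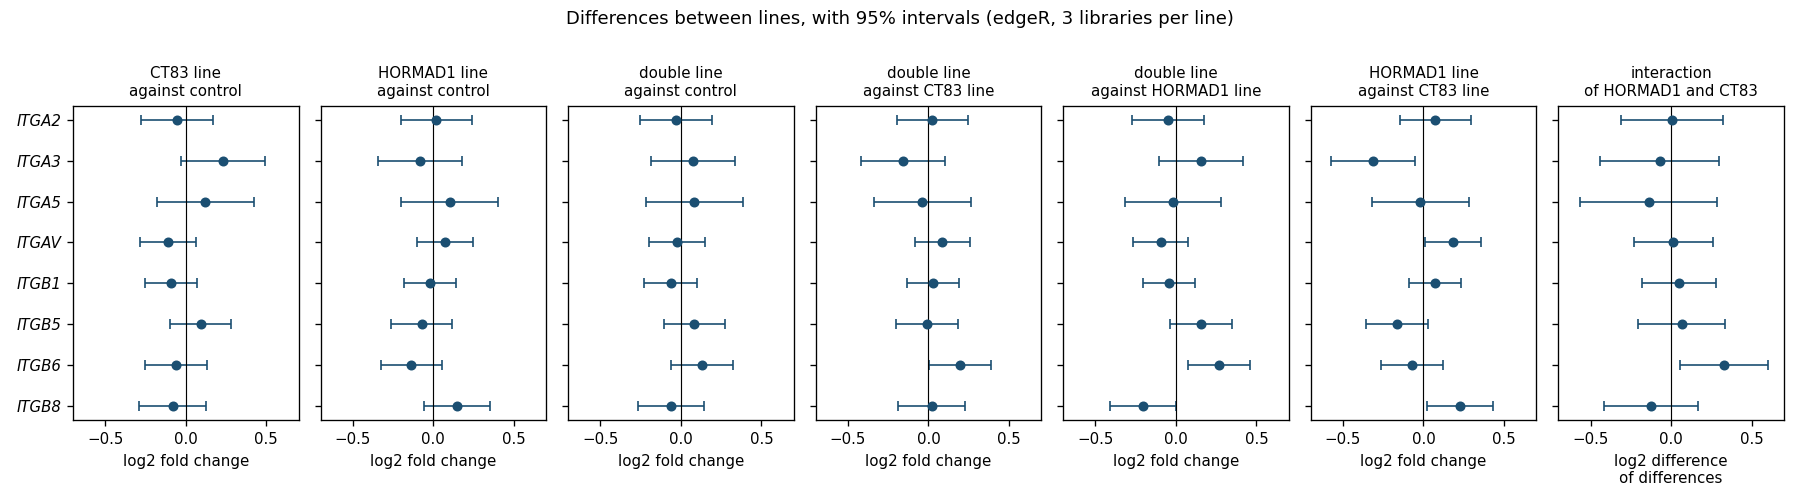
Log2 fold changes (x axis) of the 8 integrins (rows) in 6 comparisons of lines and the interaction, with unadjusted 95% intervals from edgeR on 12 libraries, 3 per line. The intervals against control all include 0, and the interval of ITGB6 in the double line against the HORMAD1 line runs from 0.07 to 0.46.

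Set against each other per kb, ITGB5 and ITGB6 had nearly equal shares among the 3 beta partners specific to ITGAV, and ITGB8 a small one, in each line. Of the sum of ITGB5, ITGB6 and ITGB8 in CPM per kb, ITGB5 made up 48.1% ± 1.8 in control, 50.8% ± 1.5 in the CT83 line, 48.5% ± 3.1 in the HORMAD1 line and 47.6% ± 1.3 in the double line (SD, n = 3). ITGB6 made up 45.9% ± 1.8, 43.6% ± 2.0, 44.6% ± 3.0 and 47.1% ± 1.2. ITGB8 made up 5.93% ± 0.16 in control, 5.57% ± 0.49 in the CT83 line, 6.97% ± 0.20 in the HORMAD1 line and 5.31% ± 0.21 in the double line. The HORMAD1 libraries, at 6.79% to 7.19%, all lay above the other 9, of which the highest had 6.12%. The shares add up to 100% in each library, so they are not independent, and they were not tested. ITGB3, a further partner of ITGAV, was listed at 0 in each library; 51.6% of its exon bases are shared with another entry on its strand, which held at most 3 counts, so the 0 does not give its level.

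**Figure D3:**
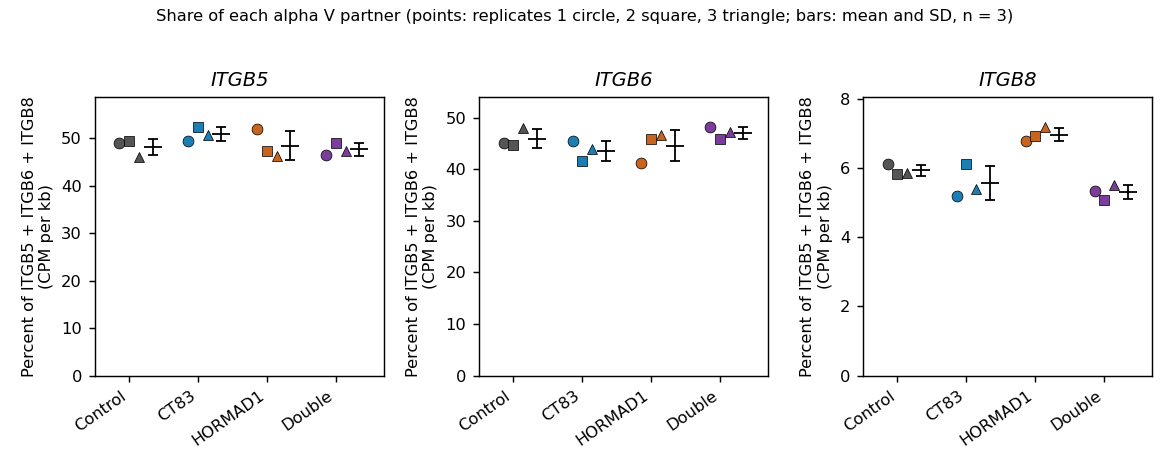
Share (y axis, percent, from 0) of ITGB5, ITGB6 and ITGB8 in their sum of CPM per kb, by line (x axis); points are libraries and bars the mean and SD of 3. The ITGB8 share was 6.79% to 7.19% in the HORMAD1 libraries and at most 6.12% elsewhere.

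Part of the spread within lines went with transcript length. In each library the slope of log2 CPM on log10 transcript length over 15330 genes was taken relative to the mean of its line; it ran from -0.106 (HORMAD1 replicate 3) to 0.170 (HORMAD1 replicate 1). CT83 replicate 3 had 0.134, double replicate 3 had 0.0932 and control replicate 2 had 0.0815, the highest of their lines. Relative to the mean of all 12 libraries, the 3 highest slopes were 0.194 (HORMAD1 replicate 1), 0.173 (CT83 replicate 3) and 0.0937 (control replicate 2). The lines differed as well: the mean slope of 3 libraries on that scale was 0.0122 in control, 0.0393 in the CT83 line, 0.0249 in the HORMAD1 line and -0.0764 in the double line, with overlapping libraries. All 8 integrins were above the mean of their line in CT83 replicate 3, and 5 of 8 were in HORMAD1 replicate 1, ITGA5 by 0.44 and ITGA3 by 0.33 log2 units. The longest of the 8, ITGB8, ITGA2 and ITGAV, were at 0.03, 0.05 and -0.10 in HORMAD1 replicate 1. The part of transcript length in the results below was not tested beyond leaving libraries out and fitting a length term.

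Without the 3 libraries of highest slope among the 12 together (control 2, CT83 3 and HORMAD1 1), edgeR called 3 of 8 integrins between the HORMAD1 and CT83 lines, beside 5.92% of all genes. ITGA3 was at -0.41 (adjusted p 8.94e-04), ITGA5 at -0.27 (adjusted p 0.0259) and ITGAV at 0.29 (adjusted p 0.022) in the HORMAD1 line. Between the double and HORMAD1 lines it called 1 of 8, ITGA3 at 0.34 (adjusted p 0.00239), beside 2.16% of all genes. Over the 4 lines it called 1 of 8 (ITGA3, adjusted p 0.00258; 3.82% of all genes). The control, CT83 and HORMAD1 lines then had 2 libraries each and the double line 3. The libraries left out were picked by slopes in these same data. Leaving out a library that stands apart narrows the spread within its line, so adjusted p-values of such fits may be too small.

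Double replicate 3 was then left out as well, so that each line lost its library of highest slope, called its steepest here. Relative to the mean of all 12 libraries, double replicate 3 had a slope of 0.0168. Double replicates 1 and 2, which stayed in the fit, had -0.155 and -0.0906. The part of these slopes in the calls was not tested. In this fit edgeR called the same 3 genes between the HORMAD1 and CT83 lines (10.5% of all genes). It called ITGA3 at 0.36 (adjusted p 3.8e-04) and ITGA5 at 0.25 (adjusted p 0.0221) between the double and HORMAD1 lines (2 of 8; 4.18% of all genes), and 3 of 8 over the 4 lines (7.73%). The integrins' shares have to be read against those of all genes, which grew with them. With all 12 libraries and transcript length as a term in the fit, 0 of 8 integrins were called in each comparison, and ITGA3 was at -0.30 (SE 0.10, adjusted p 0.94, edgeR) in the HORMAD1 line against the CT83 line. ITGA3 is 4888 and ITGA5 4444 bases long, against a median of 2842 bases over all tested genes that have a length. Among the 8 integrins lengths run from 3784 (ITGB1) to 8751 bases (ITGB8), with ITGAV at 7030.

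**Figure D4:**
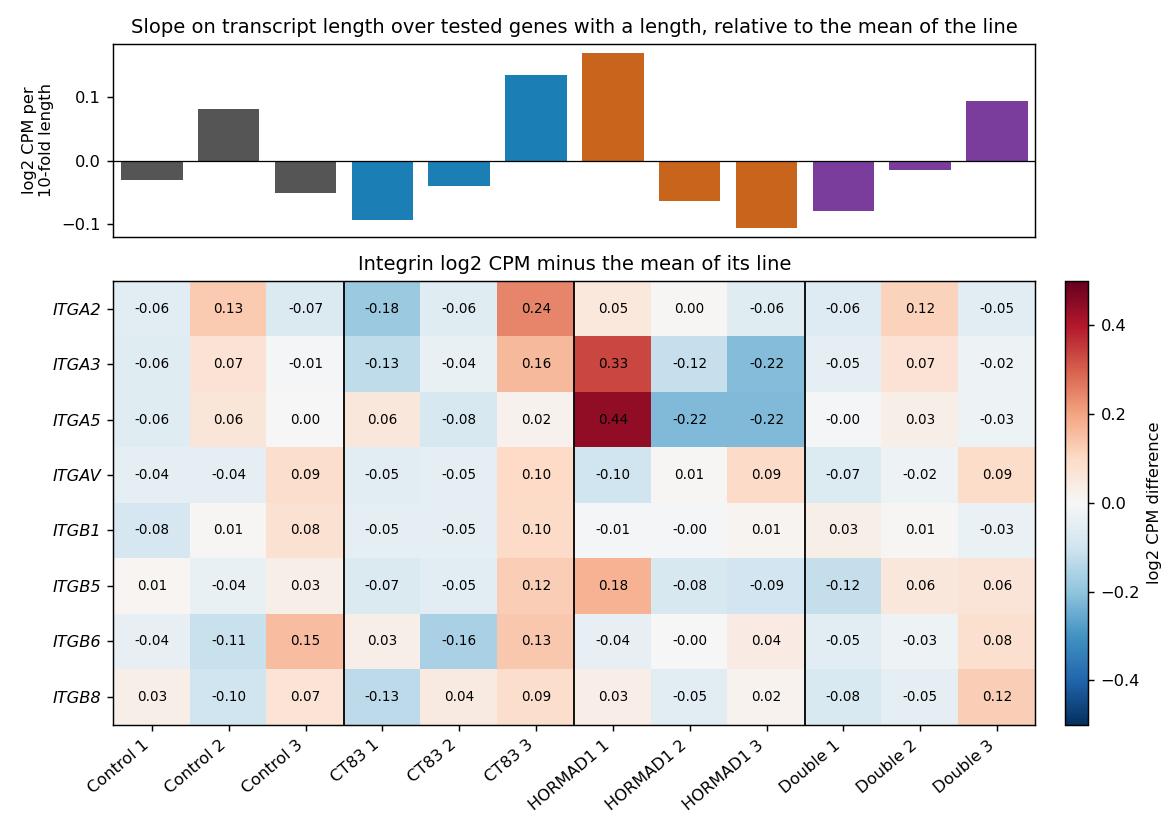
Top, slope of log2 CPM on transcript length (y axis, per 10-fold length) in each of the 12 libraries relative to the mean of its line; bottom, log2 CPM of each integrin minus the mean of its line, as colour and number. HORMAD1 replicate 1 has the highest slope (0.170) and the highest deviations, 0.44 for ITGA5 and 0.33 for ITGA3.

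Across the 12 libraries the integrins did not vary as 1 block. Of 28 pairs, 16 had a positive Pearson r of log2 CPM, and the median was 0.20; these values describe libraries that share their lines and normalisation. The highest was 0.87 for ITGA3 and ITGB5, followed by 0.75 for ITGAV and ITGB8 and 0.74 for ITGA3 and ITGA5. The lowest was -0.59 for ITGA3 and ITGAV. Without control replicate 2, CT83 replicate 3 and HORMAD1 replicate 1, r was 0.84 for ITGA3 and ITGB5, 0.88 for ITGAV and ITGB8, 0.88 for ITGA3 and ITGA5 and -0.78 for ITGA3 and ITGAV. Relative to the mean of each line, 24 of 28 pairs were positive, with a median of 0.26.

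Among 10055 genes with a mean of at least 10 CPM, the 2 with the highest r over 12 libraries were named for each integrin. For ITGB6 they were SNAI2 (r 0.92), which encodes the transcription factor Slug, and WDR77 (r 0.89). SNAI2 had 66.4, 58.5 and 74.4 CPM in control, 56.5, 45.3 and 68.6 in the CT83 line, 57.1, 57.4 and 64.2 in the HORMAD1 line, and 69.6, 72.6 and 77.7 CPM in the double line. Like ITGB6, it had its lowest level in CT83 replicate 2 and its highest in double replicate 3. For ITGB8 the genes were EIF4EBP2 (0.92) and ZMYND11 (0.88), for ITGAV TRA2A (0.96) and ST6GALNAC5 (0.95), and for ITGB1 FUBP1 and TMF1 (0.85 both). For ITGA3 they were ZHX3 (0.95) and TAF13 (0.94), for ITGA5 AAMDC (0.93) and PRR7-AS1 (0.92), for ITGB5 SEPTIN9 (0.95) and WDR91 (0.92), and for ITGA2 AKAP8 (0.89) and LEO1 (0.86). They are the highest of many values, and nothing follows from them about function.

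Of the 18 other integrin subunit genes 9 passed the filter, and 0 were called in either direction in any comparison. The highest levels were those of ITGA6 (mean 807.1 CPM, 12 libraries) and ITGB4 (444.7 CPM), the subunits of the hemidesmosome receptor for laminin, and of ITGAE (42.3 CPM) and ITGA4 (38.9 CPM). In the double line against control 4 were above and 5 below 0, with a median log2 fold change of 0.00; at an unadjusted p under 0.05, 1 was higher and 1 lower, beside 2.72% of all genes higher and 2.84% lower. ITGA6 was at -0.09 (SE 0.11, adjusted p 0.926) and ITGB4 at -0.20 (SE 0.38, adjusted p 0.937, edgeR). ITGA4, the 1 that was higher, was at 0.36 (SE 0.14, adjusted p 0.829, edgeR). Against the HORMAD1 line ITGA4 was at 0.50 in the double line (SE 0.14, unadjusted p 0.00244, adjusted p 0.283, edgeR). There 4 of the 9 were above and 5 below 0, and ITGA4 alone had an unadjusted p under 0.05, beside 7.59% of all genes.

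The ligands and the intracellular partners also had 0 members called in either direction, in each of the 7 comparisons. Of 28 matrix ligand genes 25 were tested, and in the double line against control 22 were below and 3 above 0, with a median log2 fold change of -0.35. The same median was 0.00 over all genes tested, of which 49.7% were above 0. Among the most abundant ligands were THBS1 (thrombospondin; -0.44, SE 0.27, adjusted p 0.9), FN1 (fibronectin; -0.41, SE 0.36, adjusted p 0.913) and LAMB3 (a laminin chain; -0.32, SE 0.25, adjusted p 0.91), all by edgeR. At an unadjusted p under 0.05, 2 of the 25 were lower and 0 higher in that comparison (2.84% and 2.72% of all genes). In the CT83 line against control 12 were above and 13 below 0, with a median of -0.01, and in the HORMAD1 line against control 8 were above and 17 below 0, with a median of -0.07. The tested ligand genes had a median transcript length of 6547 bases, against 2842 over all genes tested that have a length, and the mean length slope was lower in the double line (-0.0764) than in control (0.0122). The part of length in the ligands' values was not tested.

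Of 8 genes listed for latent TGF-beta complexes, 7 were tested. In the double line against control 1 was above and 6 below 0 (median -0.13; 0 higher and 1 lower at an unadjusted p under 0.05, beside 2.72% and 2.84% of all genes), and in the CT83 line 6 were above and 1 below 0 (median 0.32). TGFB1, the most abundant, was at -0.20 (SE 0.13, adjusted p 0.9, edgeR) in the double line. Among 29 activators and adaptors of adhesions 28 were tested, 6 above and 22 below 0 in the double line against control (median -0.10; 1 higher and 0 lower at an unadjusted p under 0.05, beside the same shares of all genes). Median transcript lengths were 5032 bases for the tested genes of latent TGF-beta complexes and 4745 for the adaptors, also above that of all genes. The actin crosslinkers FLNA (-0.52, SE 0.46, adjusted p 0.913), ACTN4 (-0.36, SE 0.19, adjusted p 0.894), and ACTN1 (-0.25, SE 0.15, adjusted p 0.9, edgeR) were among its most abundant members. All 12 membrane partners of integrins were tested, 7 above and 5 below 0 in the same comparison (median 0.02; 0 at an unadjusted p under 0.05, beside 2.72% of all genes higher and 2.84% lower). CAV1, which encodes the caveolae protein caveolin, was the most abundant of them at 1389 CPM and stood at 0.09 (SE 0.10, adjusted p 0.925, edgeR).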

How the data were processed

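Polyadenylated RNA of 12 libraries (4 lines, 3 per line) was sequenced after library preparation with a NEBNext Ultra kit, per the labels' protocols. Trimmomatic 0.39, STAR 2.7.5c, Picard and SAMtools are named in the submitters' processing notes, with the builds hg38 and hg19 and no roles. How genes were counted, with which annotation and whether by strand, is not given in the sources used here.

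Values as deposited are expected counts (estimated counts) per gene made by the authors; rounding to whole numbers altered 6.75% of them. The test was chosen for counts and kept. Of 61533 identifiers, 61415 matched a symbol. Coordinates, lengths (longest basic transcript) and overlaps came from GENCODE 29. Groups follow the labels. With R 4.3.3, filterByExpr of edgeR 4.0.16 (minimum count 10) left 15616 genes; edgeR's quasi-likelihood test with robust dispersions, TMM scaling, 8 residual degrees of freedom and a mean for each line was run with Benjamini-Hochberg adjustment over all genes. CPM values are normalised; log2 CPM used a prior count of 2. Library totals were 9898845 to 14159740 counts. Replicates differed by more than sampling noise (chi-square per degree of freedom 2.54 to 26.4). Tested alternatives were other scalings and filters, DESeq2 1.42.0, limma-voom (limma 3.58.1), only the groups compared, a replicate block and a length offset. Further fits left out each library, or libraries with a steep length slope, which were picked from these data. Leaving out the steepest library of each line and adding the ITGAV antisense counts were chosen after seeing the data. The script was tested on simulated data.

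The members and gene lists were chosen with earlier results of these data known. Named genes were the 8 integrins, the transgenes, the 2 genes most like each integrin, and per list at most 4 members of highest mean CPM; cell type markers and SNAI2 levels were given besides, and TGFB1 and CAV1 as the most abundant of their lists. Values of some list members are not reported here.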

Additional observations from a re-analysis of the deposited data

How the results depend on the processing

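Over 25 alternatives, 32 of the 56 integrin differences kept their sign; the 24 that changed it at least once were at most 0.14 in size in the fit of 12 libraries. The number of integrins called was 0 under the alternatives other than leaving out libraries. Among single libraries left out, the HORMAD1 against CT83 comparison had 0 to 1 called (ITGA3, without HORMAD1 replicate 1) and the other comparisons 0. Without the 3 libraries of steep length slope, 3 integrins were called between the HORMAD1 and CT83 lines, 1 between the double and HORMAD1 lines and 1 over the 4 lines; without the steepest library of each line these were 3, 2 and 3. In the latter, ITGA5 in the double line against the HORMAD1 line turned from -0.02 to 0.25. These fits hold fewer libraries, the steep libraries were picked by their slope in these data, and the cause was not tested.

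Over all genes, that last setting gave the highest counts of calls: 367 against 1 for the CT83 line and 11 against 1 for the HORMAD1 line, both against control, and 60 against 4 for the double line against control. It gave 235 against 1 for the double against the CT83 line, 652 against 7 for the double against the HORMAD1 line, 1642 against 2 for the HORMAD1 against the CT83 line, 72 against 0 for the interaction and 1206 against 7 over the 4 lines. The lowest counts over the alternatives were 0 or 1.

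With the replicate number as a block, 0 integrins were called in each comparison. Same-numbered libraries of different lines had correlations of -0.354 to 0.351. For 6 of 12 libraries the best correlate in another line had the same number. These values do not settle whether the numbers pair the samples. With 3 libraries per line, log2 differences in these genes have standard errors of 0.076 to 0.14.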
